A study of Mus musculus with 60 samples.

Results

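Thrombospondins and other matricellular proteins are described here across mouse fibroblasts that were reprogrammed or treated with TGFb inhibitors. The 10 genes are the thrombospondins Thbs1, Thbs2, Thbs3, Thbs4 and Comp, with Tnc (tenascin C), Postn (periostin), Spp1 (osteopontin), Sparc (osteonectin) and Fn1 (fibronectin). They were taken by symbol, as 10 of the 56980 gene identifiers in each of 2 RNA-seq count tables, and every one was found in both and passed the main filter on low counts. Thbs4 did not pass the stricter alternative of 10 counts in every reprogramming library.

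Matricellular proteins are secreted into the matrix, where they bind integrins, growth factors and collagen and tune adhesion more than they carry load. Thrombospondins 1 and 2 form trimers and thrombospondins 3, 4 and COMP form pentamers, and thrombospondin 1 can release TGFb from its latent complex. Periostin, tenascin C, osteopontin and fibronectin are made by fibroblasts during wound repair and fibrosis, and several of these genes are known to respond to TGFb.

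The first table held 36 libraries in 12 groups of 3. Tail tip fibroblasts of a male Ercc1 d/- mouse of 8 weeks with the inducible 4FJ cassette (D/KO), and of a female 4FJ +/- OCT4-GFP mouse of 22 weeks (WT), were taken at day 0, 2 or 4 of doxycycline (2 µg/ml), which switches on Oct4, Sox2, Klf4 and c-Myc. Each of these 6 conditions was run without and with VC, which is ascorbic acid (50 µg/ml) together with the GSK3 inhibitor CHIR99021 (3 µM). All of these cells carry the cassette, which the study places at Col1a1, with a reverse transactivator at ROSA26, and day 0 cells had no doxycycline. In D/KO cells a single truncated Ercc1 allele is left, so repair of DNA damage is impaired.

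The second table held 24 libraries in 8 groups of 3. Tail tip fibroblasts of a female Ercc1 d/- mouse of 4 weeks were left untreated (control) or given Repsox, Vactosertib, A83-01 or DMH-1 for 3 days. Repsox and A83-01 inhibit the TGFb receptor ALK5, DMH-1 the BMP receptor ALK2, and Vactosertib is described as acting on both. Repsox, Vactosertib and A83-01 are called ALK5 inhibitors below for what they share. Doses were 0.1 µM for Repsox and Vactosertib and 1 µM for A83-01 and DMH-1, as given for the DNA methylation comparison of these inhibitors, with RNA and DNA taken from the same samples. Untreated WT fibroblasts came from tail tip and from skin (both labelled Ercc1 +/+, female, 14 weeks). A last group of 4FJ +/- OCT4-GFP tail tip fibroblasts (female, 22 weeks) has TGFB as its treatment label, with no untreated library of that line in the same table, and is given as values only.

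The reprogramming libraries held 16538374 to 18484951 counts each and the inhibitor libraries 17102639 to 30599138. No source says that the 3 libraries of a group came from separate cultures or animals, so p-values measure only the spread between these samples, which may be technical. D/KO and WT lines differ in sex or age as well as in Ercc1, and genotype cannot be told apart from these. Ercc1 itself stood at 8.03 to 18.6 CPM (the TMM-normalized count scaled to a common library size) in D/KO and 16.8 to 29.1 in WT libraries of the reprogramming table, and the 2 ranges overlapped. In the inhibitor table it was not lower in D/KO, at 20.3 to 20.9 CPM in control D/KO and 13.3 to 21.7 CPM in WT tail tip libraries. Counts per gene do not separate a truncated from an intact allele, and the level of Ercc1 does not check the labels of that table. Pou5f1, one of the induced factors, reached at most 2.88 CPM at day 0 and lay between 12.5 and 150 CPM afterwards. At day 2 it was at 62.1 to 76.0 CPM in D/KO and 12.5 to 48.8 CPM in WT libraries without VC. With VC it was at 86.2 to 111 and 40.0 to 55.0 CPM. At day 4 the 2 lines overlapped, with and without VC. Klf4 without VC went from 69.0 to 117 CPM at day 0 to 224 to 232 CPM at day 2 in D/KO cells. In WT cells it was at 189 to 198 and 175 to 229 CPM. The part of unequal induction was not tested. A library of skin fibroblasts (replicate 1) and a Repsox library (replicate 2) stood apart from their groups in long against short genes, and the comparisons that use them are given with and without them below.

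All 7 fibroblast markers passed the filter, and their summed level ran from 24074 CPM in D/KO day 4 plus VC to 242011 CPM in D/KO day 0 plus VC. The 4 endothelial markers summed to 137 to 692 CPM in D/KO and 0.165 to 1.54 CPM in WT libraries of the reprogramming table. The 6 macrophage markers summed to 41.5 to 146 CPM in those WT libraries and 2.45 to 13.8 CPM in D/KO. The 3 tenocyte markers were highest in WT day 0 of the reprogramming table (141 to 162 CPM), the 5 chondrocyte markers stayed under 88.5 CPM and the 4 osteoblast markers under 57.4 CPM in every library. The 3 Schwann cell markers stayed under 38.9 CPM in every library. No marker was at 0 in all libraries. In bulk libraries, fewer cells of a type and less RNA per cell cannot be told apart, and the part of any other cell type in the results below was not tested.

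In GRCm39, the build of the count tables, Thbs1 lies at chr2:117942357-117957614 on the plus strand, Thbs2 at chr17:14885762-14914497 (minus), Thbs3 at chr3:89122487-89134144 (plus), Thbs4 at chr13:92888098-92931326 (minus) and Comp at chr8:70826208-70834716 (plus). Tnc lies at chr4:63878022-63965252 (minus), Postn at chr3:54268530-54298458 (plus), Spp1 at chr5:104582984-104588916 (plus), Sparc at chr11:55285326-55314009 (minus) and Fn1 at chr1:71624679-71692359 (minus). All 10 are protein-coding, and the counts are sums over their exons. Thbs3 shares 11658 bases with Mtx1 on the opposite strand, and the strand setting of the counting is not given in the sources used here, so reads of Thbs3 and Mtx1 may not be separated and Thbs3 is read as uncertain.

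The 4 genes that fell furthest with the ALK5 inhibitors, Spp1, Postn, Thbs2 and Tnc, are shown by the 250 bases before a RefSeq transcription start in GRCm38.p6, a different build from the counts. RefSeq windows were at hand for 7 of the 10 genes, and Thbs1, Comp and Fn1 are named only. Capitals mark CAGAC, the Smad box bound by the transcription factors of the TGFb pathway, on either strand (read as GTCTG on the other), and TATAAA, the TATA box motif, on the strand of the gene.
Postn, chr3:54360857-54361106, plus strand: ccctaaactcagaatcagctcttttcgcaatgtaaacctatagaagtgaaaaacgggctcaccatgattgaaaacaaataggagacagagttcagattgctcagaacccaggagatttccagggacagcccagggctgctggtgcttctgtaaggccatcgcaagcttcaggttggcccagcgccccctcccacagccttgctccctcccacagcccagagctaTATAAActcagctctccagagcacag
Spp1, chr5:104434861-104435110, plus strand: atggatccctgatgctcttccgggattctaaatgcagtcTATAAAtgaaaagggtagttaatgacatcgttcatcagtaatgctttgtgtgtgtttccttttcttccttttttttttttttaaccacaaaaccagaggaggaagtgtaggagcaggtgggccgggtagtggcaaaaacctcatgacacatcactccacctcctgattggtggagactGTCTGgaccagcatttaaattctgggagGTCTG
Thbs2, chr17:14694263-14694512, minus strand: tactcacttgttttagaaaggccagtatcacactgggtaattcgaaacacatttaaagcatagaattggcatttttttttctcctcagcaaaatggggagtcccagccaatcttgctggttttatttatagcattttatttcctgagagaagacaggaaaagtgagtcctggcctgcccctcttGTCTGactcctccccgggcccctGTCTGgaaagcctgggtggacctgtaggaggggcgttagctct
Tnc, chr4:64047016-64047265, minus strand: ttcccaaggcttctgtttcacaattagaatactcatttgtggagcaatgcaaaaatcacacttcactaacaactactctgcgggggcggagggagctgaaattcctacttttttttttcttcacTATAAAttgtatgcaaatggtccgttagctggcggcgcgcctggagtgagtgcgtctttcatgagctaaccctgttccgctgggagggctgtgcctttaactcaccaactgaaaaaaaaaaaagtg
CAGAC starts 33 and 5 bases before the start in Spp1 and 66 and 43 bases before it in Thbs2, and is not in the windows of Postn and Tnc shown. A second RefSeq window of Postn (chr3:54359017-54359266) and of Tnc (chr4:64046937-64047186) does hold it, 191 and 70 bases before the start, and a second window of Spp1 (chr5:104435942-104436191) holds it once, 41 bases before the start, with no TATA box motif. TATAAA starts 26 bases before the start in Postn, 211 in Spp1 and 126 in Tnc. Over 32851 mouse windows of the same length, 42.2% held CAGAC and 7.59% TATAAA, so that a CAGAC match is common, and both matches are given as descriptions. TGACTCA, the AP-1 site, was searched on both strands and was in none of the 10 windows of the 7 genes, against 4.46% of all windows.

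Per kilobase of exon, Sparc had the highest level of the 10 in D/KO day 0 cells, at 2711 ± 197 CPM per kb (SD, n = 3). Thbs1 followed at 1835 ± 204, Fn1 at 1424 ± 243 and Spp1 at 959 ± 222 CPM per kb, and across libraries Thbs1 overlapped Fn1 and Fn1 overlapped Spp1. Tnc (236 ± 50.8 CPM per kb) and Thbs2 (194 ± 8.4) also overlapped. Postn (94.6 ± 28.7) and Comp (29.2 ± 9.8) each stood alone, and Thbs3 (3.7 ± 0.5) and Thbs4 (2.4 ± 1.3) were lowest and overlapped. In WT day 0 cells Thbs1 led at 1977 ± 104 CPM per kb, ahead of Sparc at 1695 ± 32.7. Thbs4, after Fn1 in that order, was at 292 ± 91.2 CPM per kb, and overlapped Postn at 241 ± 26.4. The 10 genes held 4.11% ± 0.31 of all counts in D/KO day 0 and 3.82% ± 0.22 in WT day 0 libraries (SD, n = 3).

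Nearly all of these genes were lower in D/KO cells after doxycycline. No library of day 2 or day 4 went without doxycycline. The induced factors, doxycycline itself and time in culture therefore cannot be told apart, in either line. At day 2 of doxycycline without VC 9 of the 10 had fallen and none had risen, and at day 4 9 had fallen and Comp had risen. The deepest falls at day 4 were in Thbs4, Postn, Tnc and Spp1, each over 4-fold. The 10 genes' share of all counts went from 4.11% ± 0.31 to 2.02% ± 0.24 (SD, n = 3). Among all 15832 genes tested, 14.3% rose and 13.2% fell at day 2, and 18.3% rose and 18.7% fell at day 4, at an adjusted p under 0.05. TMM centres these shares. With counts scaled by library totals alone, 19.4% rose and 9.34% fell at day 2 and 27% rose and 13% fell at day 4, and such shares are given below as the pair by library totals. Over the comparisons that scaling moved the median of all genes to between -0.29 (VC alone in WT) and 0.38 (D/KO day 4 plus VC), and it turned the direction of no member that had passed. The median log2 fold change was -1.16 and -1.46 over the 10 genes and 0.00 over all genes at both days. Tests are edgeR quasi-likelihood F-tests with Benjamini-Hochberg adjustment over all genes, written below as edgeR adjusted p, and both days share the day 0 libraries. The fibroblast markers summed to 69629 to 110182 CPM at day 0 and 28186 to 29922 CPM at day 4, and the smooth muscle and pericyte markers to 1015 to 1605 and 208 to 226 CPM. The endothelial markers went from 635 to 692 CPM to 245 to 293 CPM, the tenocyte markers from 67 to 78.2 CPM to 25.3 to 26.4 CPM and the chondrocyte markers from 40.3 to 44.2 CPM to 8.04 to 12 CPM, while the keratinocyte markers went up from at most 0.762 CPM to 42.9 to 59.3 CPM.

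**Figure D1:**
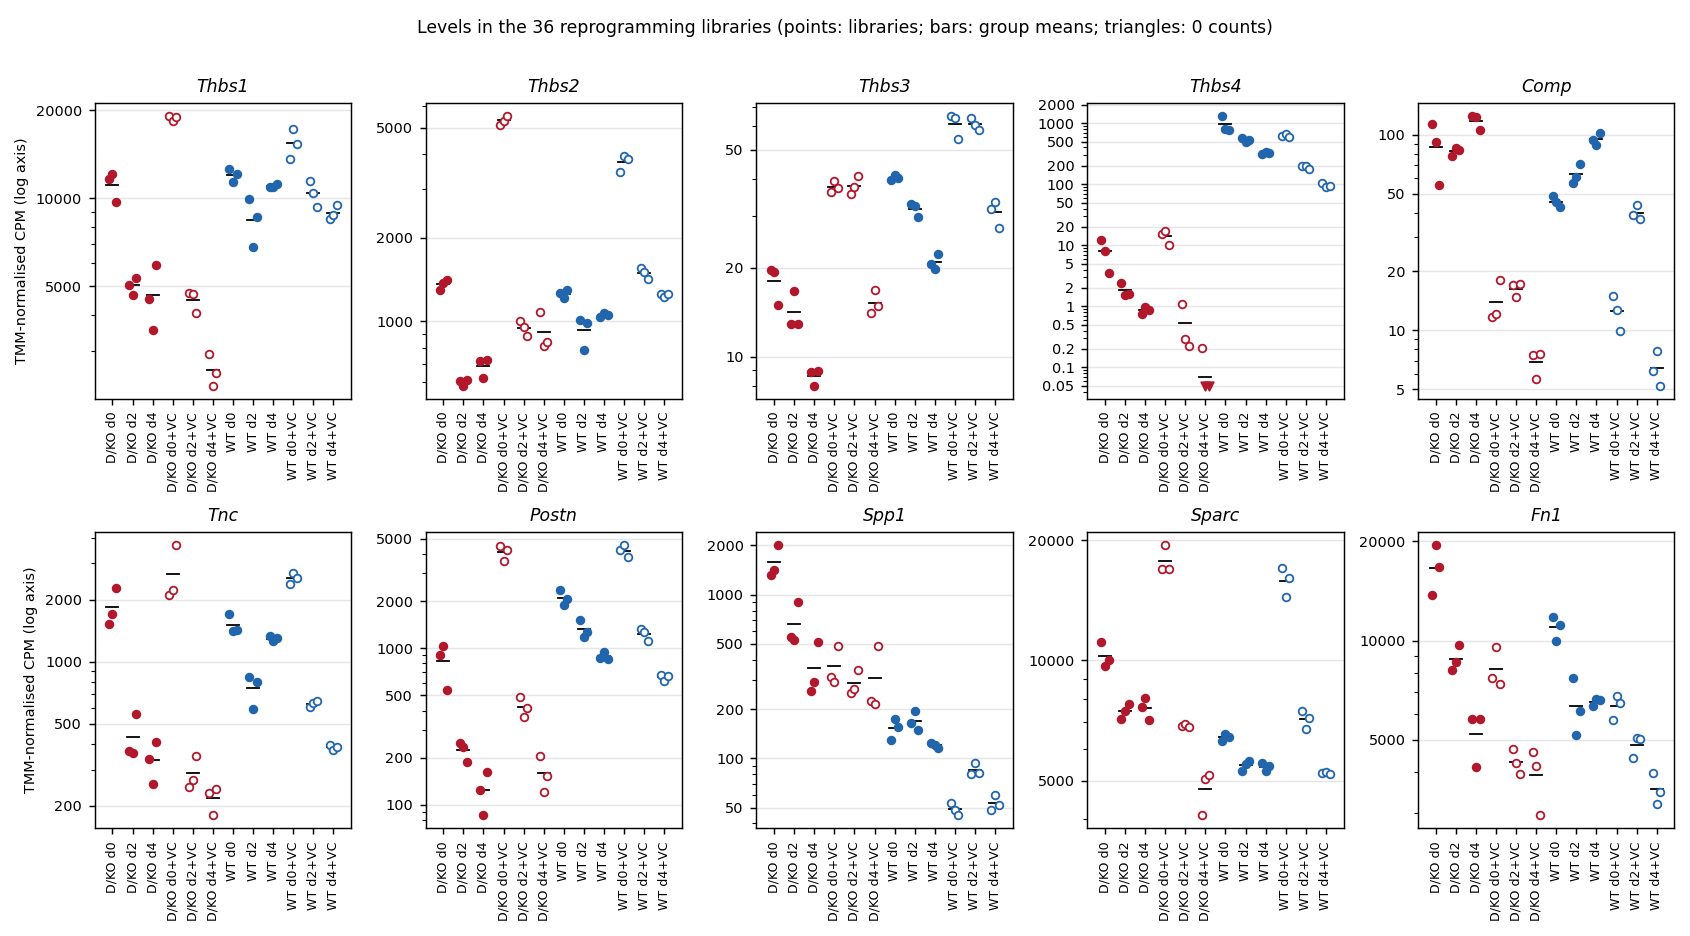
TMM-normalized CPM (log axis) of each of the 10 genes in the 36 libraries of the reprogramming experiment at days 0, 2 and 4 of doxycycline, with D/KO in red, WT in blue, filled points without VC and open points with VC. Short horizontal bars mark group means, and triangles mark libraries with 0 counts, drawn at 0.05 CPM. Postn, Tnc and Thbs4 fall in D/KO cells in both arms, and Thbs4 in WT cells starts at 772 to 1306 CPM.

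Among the thrombospondins, Thbs1 stood at 11610, 12085 and 9741 CPM in the D/KO day 0 libraries, at 5067, 4685 and 5346 CPM at day 2 and at 4534, 3536 and 5932 CPM at day 4. All day 2 and day 4 libraries were below all day 0 libraries, and days 2 and 4 overlapped. The log2 fold change at day 4 was -1.26 ± 0.14 (SE; edgeR adjusted p = 4.44e-09). Thbs2, the closest relative of Thbs1, went from 1293 to 1410 CPM at day 0 to 583 to 614 CPM at day 2 and 623 to 721 CPM at day 4 (day 4 log2 fold change -0.98 ± 0.10, edgeR adjusted p = 3.68e-10). Thbs3 went from 15 to 19.7 CPM to 7.99 to 8.95 CPM at day 4 (-1.06 ± 0.12, edgeR adjusted p = 4.49e-09). Its smaller difference at day 2 (-0.35 ± 0.12, edgeR adjusted p = 0.0241) was lost when 1 of 4 libraries was left out or when counts were scaled by library totals alone.

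Thbs4, a pentamer known from tendon and injured muscle, was low in this line. It stood at 12.3, 8.03 and 3.53 CPM at day 0, at 2.41, 1.51 and 1.58 CPM at day 2 and at 0.76, 0.992 and 0.863 CPM at day 4. The 3 days did not overlap, though the day 0 libraries spread over 3-fold. Its log2 fold change at day 4 was -3.17 ± 0.37 (edgeR adjusted p = 8.28e-09). Comp, the cartilage oligomeric matrix protein, was the exception among the 10. It stood at 113, 91.5 and 55.4 CPM at day 0, at 77.8, 85.1 and 84.0 CPM at day 2 and at 125, 123 and 106 CPM at day 4, so that day 0 and day 4 overlapped. The day 4 log2 fold change of 0.44 ± 0.17 (edgeR adjusted p = 0.0318) became 0.20 and missed the threshold without the lowest day 0 library (replicate 3).

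Tenascin C, an adhesion-modulating hexamer of wounds and tumour stroma, stood at 1517, 1709 and 2277 CPM at day 0. It fell to 371, 360 and 560 CPM at day 2 and to 338, 254 and 410 CPM at day 4. The day 0 libraries were all above the rest, and days 2 and 4 overlapped (day 4 log2 fold change -2.46 ± 0.19, edgeR adjusted p = 6.28e-13). Periostin, a partner of collagen and integrins in skin, tendon and bone, stood at 901, 1025 and 544 CPM at day 0, at 247, 233 and 189 CPM at day 2 and at 124, 86.1 and 161 CPM at day 4. The 3 days did not overlap (day 4 log2 fold change -2.74 ± 0.20, edgeR adjusted p = 6.82e-14).

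Osteopontin, a secreted integrin and CD44 ligand, stood at 1327, 1415 and 2001 CPM at day 0, at 552, 529 and 906 CPM at day 2 and at 258, 293 and 514 CPM at day 4. In each group replicate 3 was highest, and the 3 days still did not overlap (day 4 log2 fold change -2.16 ± 0.25, edgeR adjusted p = 7.94e-09). SPARC, a collagen-binding glycoprotein, moved least at day 4 among the genes that fell. It went from 9663 to 11102 CPM to 7143 to 7752 CPM at day 2 and 7099 to 8040 CPM at day 4 (-0.44 ± 0.10, edgeR adjusted p = 0.0004). Fibronectin, the fibril-forming ligand of integrin alpha5 beta1, went from 13758, 19443 and 16717 CPM at day 0 to 8126, 8584 and 9729 CPM at day 2 and 5768, 4128 and 5777 CPM at day 4. Its 3 days did not overlap (day 4 log2 fold change -1.67 ± 0.16, edgeR adjusted p = 5.56e-11).

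With TMM scaling, VC given alone, before any doxycycline, moved all 10 genes in D/KO cells and all 10 in WT cells, and more rose than fell. In D/KO cells 7 rose and 3 fell, and in WT cells 6 rose and 4 fell. Periostin, thrombospondin 2, SPARC, Thbs3, Tnc and Thbs1 rose in both lines, and Comp, Spp1 and Fn1 fell in both. The background was 12.1% of tested genes higher and 14% lower in D/KO cells, and 15.1% higher and 14.4% lower in WT cells. By library totals it was 7.67% higher and 25.9% lower in D/KO and 7.03% and 34.2% in WT cells. With that scaling 8 of the 10 genes passed in each line, and the calls lost in WT cells were the rises of Thbs1 and Tnc. The median log2 fold change of the 10 genes was 0.77 in D/KO and 0.48 in WT cells, against 0.00 over all genes in each. The fibroblast markers summed to 175720 to 242011 CPM with VC and 69629 to 110182 CPM without it in D/KO cells, and to 147538 to 161597 and 45677 to 47135 CPM in WT cells. In D/KO cells the smooth muscle and pericyte markers went down from 1015 to 1605 CPM to 497 to 662 CPM, while in WT cells they were at 452 to 537 CPM without and 506 to 703 CPM with VC, which overlapped. In D/KO cells the endothelial markers went from 635 to 692 CPM to 218 to 258 CPM, the osteoblast markers were at 30.5 to 41.7 CPM without and 38.6 to 45.8 CPM with VC, and the keratinocyte markers went from at most 0.762 CPM to 1.19 to 2.14 CPM. The tenocyte markers went from 67 to 78.2 CPM to 38.1 to 43.9 CPM in D/KO and from 141 to 162 CPM to 42.2 to 54.1 CPM in WT cells.

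Thbs2 went from 1293, 1369 and 1410 CPM in D/KO day 0 cells to 5125, 5300 and 5507 CPM with VC, and from 1262, 1212 and 1293 CPM to 3459, 3956 and 3842 CPM in WT cells. No library with VC overlapped one without it, at 3.91-fold (edgeR adjusted p = 3.5e-17) and 2.99-fold (edgeR adjusted p = 2.03e-14). Periostin went from 544 to 1025 CPM to 3589 to 4519 CPM in D/KO cells, which is 5.0-fold (edgeR adjusted p = 9.15e-12). In WT cells periostin was already at 1890 to 2345 CPM and reached 3809 to 4536 CPM, which is 2.0-fold (edgeR adjusted p = 7.84e-05). With VC the 2 lines overlapped in periostin, and without it they did not. SPARC rose 1.73-fold in D/KO cells, to 16884 to 19396 CPM (edgeR adjusted p = 6.29e-08), and 2.46-fold in WT cells, from 6287 to 6533 CPM to 14390 to 16991 CPM (edgeR adjusted p = 9.28e-13).

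Comp fell from 55.4 to 113 CPM to 11.7 to 18 CPM with VC in D/KO cells, a log2 fold change of -2.63 ± 0.18 (edgeR adjusted p = 1.03e-13). In WT cells it fell from 42.8 to 48.6 CPM to 9.95 to 15 CPM (-1.86 ± 0.18, edgeR adjusted p = 5e-10). The chondrocyte markers summed to 40.3 to 44.2 CPM without and 9.12 to 16.8 CPM with VC in D/KO cells, and 33.4 to 45.9 and 16.6 to 24.4 CPM in WT cells. Spp1 fell from 1327, 1415 and 2001 CPM to 314, 294 and 489 CPM in D/KO cells (-2.11 ± 0.25, edgeR adjusted p = 3.24e-08), and from 130 to 173 CPM to 45.1 to 53.6 CPM in WT cells (-1.64 ± 0.25, edgeR adjusted p = 4.36e-06). Fn1 fell 2.02-fold in D/KO and 1.74-fold in WT cells (edgeR adjusted p = 3.27e-06 and 0.000133), with no overlap between libraries with and without VC in either line.

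Thbs4 took opposite directions in the lines with VC alone, higher in D/KO (log2 fold change 0.84 ± 0.26, edgeR adjusted p = 0.0161) and lower in WT cells (-0.62 ± 0.21, edgeR adjusted p = 0.0258). Both calls depended on single libraries: without D/KO day 0 replicate 3 the first was 0.48, and without WT day 0 replicate 1 the second was -0.33, and neither passed. The rise of Tnc in D/KO cells (0.54 ± 0.18, edgeR adjusted p = 0.0261) was 0.25 without the highest VC library (replicate 3) and missed the threshold. The rise of Thbs1 in WT cells (0.36 ± 0.14, edgeR adjusted p = 0.0489) was 0.07 when counts were scaled by library totals alone. With that scaling the Tnc value was 0.37 (D/KO) and 0.45 (WT), neither of which passed.

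With VC throughout, most of these genes also fell in D/KO cells. Against day 0 plus VC, 7 genes had fallen by day 2 and 9 by day 4, and none had risen. Among all genes 23.8% rose and 23.6% fell at day 2, and 27.9% rose and 26.2% fell at day 4 (by library totals 37% and 15% at day 2, and 45.2% and 15.6% at day 4). The median log2 fold change of the 10 was -1.72 at day 2 and -2.22 at day 4. Whether the changes with VC differed from those without it was not tested, and Spp1 (-0.24 against -2.16) and Fn1 (-1.08 against -1.67) had smaller values at day 4 with VC. The share of all counts held by the 10 genes went from 4.76% to 1.38%. The fibroblast markers summed to 24074 to 24672 CPM at day 4 plus VC, the smooth muscle and pericyte markers to 497 to 662 CPM at day 0 plus VC and 31.2 to 34.7 CPM at day 4 plus VC, and the keratinocyte markers, at most 2.14 CPM at day 0 plus VC, to 337 to 467 CPM. Over the same days the endothelial markers went up from 218 to 258 CPM to 467 to 666 CPM and the tenocyte markers down from 38.1 to 43.9 CPM to 6.63 to 9.19 CPM. The macrophage markers went from 10.4 to 13.4 CPM to 2.45 to 2.91 CPM. The osteoblast markers went from 38.6 to 45.8 CPM to 16.7 to 24.4 CPM, and the chondrocyte markers from 9.12 to 16.8 CPM to 6.11 to 7.92 CPM. VC alone had raised 7 of the 10 at day 0, so for those 7 the baseline of this comparison lay above that of the comparison without VC.

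Periostin stood at 4519, 3589 and 4252 CPM at day 0 plus VC, at 488, 363 and 417 CPM at day 2 and at 204, 120 and 153 CPM at day 4. The 3 days were far apart, and at day 4 the level was 25.9-fold lower (log2 fold change -4.70 ± 0.22, edgeR adjusted p = 1.02e-19). Tnc went from 2114, 2237 and 3665 CPM to 232, 181 and 242 CPM at day 4, 12.2-fold lower (edgeR adjusted p = 3.08e-17). Thbs1 went from 19135, 18383 and 19038 CPM to 2935, 2283 and 2519 CPM, 7.31-fold lower (edgeR adjusted p = 4.6e-18), and no library of either group came near the other. Thbs2 fell 5.84-fold and Sparc 3.72-fold (edgeR adjusted p = 4.88e-21 and 4.61e-18), and Thbs3 2.45-fold, Fn1 2.11-fold and Comp 2.02-fold.

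Thbs4 was left with almost no counts. It had 239, 224 and 143 counts in the 3 D/KO day 0 plus VC libraries, 19, 5 and 4 at day 2 and 4, 0 and 0 at day 4. Per TMM-scaled library size, the pooled counts (4 against 606) were 197-fold lower at day 4, with an exact 95% interval of 76.5 to 725 that covers counting error only. At day 2 the pooled counts (28 against 606) were 26.2-fold lower (17.9 to 39.8). Spp1 did not pass at either day with VC: it stood at 314, 294 and 489 CPM at day 0 and 226, 213 and 488 CPM at day 4, and the groups overlapped (log2 fold change -0.24, 95% interval -0.74 to 0.25, edgeR adjusted p = 0.42). Without the high day 4 library (replicate 3) the Spp1 value was -0.73 and passed.

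In WT cells without VC, at day 2, 7 of the 10 genes had fallen, and at day 4, 4 had fallen and Comp had risen. The background was 6.26% higher and 4.3% lower at day 2, and 11.7% higher and 12.8% lower at day 4, and the medians over the 10 genes were -0.47 and -0.30. The count at day 2 was 3 without WT day 0 replicate 1 and 4 without WT day 2 replicate 2, and 3 to 8 over all libraries left out in turn. The count at day 4 was 9 in place of 5 when only the 2 groups compared were fitted, a fit in which calls over all genes went from 24.5% to 46.3%. The fibroblast markers summed to 45677 to 47135 CPM at day 0 and 38351 to 39982 CPM at day 4, and the smooth muscle and pericyte markers to 452 to 537 and 60.6 to 74.6 CPM. The tenocyte markers went from 141 to 162 CPM to 69.4 to 72.7 CPM and the macrophage markers from 75.6 to 146 CPM to 53.6 to 67.6 CPM.

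Thbs4 stood at 1306, 802 and 772 CPM in WT day 0 libraries, at 570.3, 484 and 537 CPM at day 2 and at 311, 341 and 321 CPM at day 4. The days did not overlap, and the highest library was of day 0 (day 4 log2 fold change -1.57 ± 0.22, edgeR adjusted p = 7.55e-07). Postn fell from 1890 to 2345 CPM to 858 to 950.0 CPM at day 4 (-1.24 ± 0.19, edgeR adjusted p = 3.79e-06), Fn1 from 9996 to 11797 CPM to 6332 to 6665 CPM (-0.75 ± 0.15, edgeR adjusted p = 0.000353) and Thbs3 1.93-fold (edgeR adjusted p = 3.17e-08). Comp rose from 48.6, 45.2 and 42.8 CPM to 94.4, 88.6 and 102 CPM (1.06 ± 0.17, edgeR adjusted p = 7.85e-06), with no overlap. Tnc was lower at day 2 (1404 to 1702 CPM against 590.3 to 839 CPM, log2 fold change -1.02 ± 0.19, edgeR adjusted p = 0.000155). At day 4 it was back at 1258 to 1327 CPM, with a difference from day 0 of -0.22 (95% interval -0.60 to 0.15) that missed the threshold. Thbs1 likewise stood at 6792 to 9953 CPM at day 2 and 10914 to 11200 CPM at day 4, against 11336 to 12588 CPM at day 0.

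With VC, 6 of the 10 genes fell and 2 rose in WT cells by day 2, and 9 fell and none rose by day 4. Among all genes 13.8% rose and 13.7% fell at day 2, and 22.7% rose and 22% fell at day 4 (by library totals 20.5% and 9.61%, and 39.5% and 12.7%). The medians over the 10 genes were -0.86 and -1.29. From day 0 to day 4 plus VC the fibroblast markers went from 147538 to 161597 CPM to 51395 to 60806 CPM, and the smooth muscle and pericyte markers from 506 to 703 CPM to 47.6 to 51.1 CPM. The macrophage markers went from 69.6 to 118 CPM to 41.5 to 44.2 CPM and the keratinocyte markers from at most 1.53 CPM to 10.2 to 12.1 CPM. Tnc went from 2375, 2682 and 2560 CPM to 604, 630.2 and 647 CPM at day 2 and 397, 376 and 387 CPM at day 4, which were 3 separate ranges (6.57-fold lower at day 4, edgeR adjusted p = 7.02e-14). Thbs4 went from 601 to 656 CPM to 89.1 to 106 CPM at day 4, and Postn from 3809 to 4536 CPM to 619 to 672 CPM (6.47-fold and 6.44-fold lower, edgeR adjusted p = 3.84e-12 and 1.04e-13). The 2 genes that rose at day 2 were Comp, from 9.95 to 15 CPM to 37.1 to 43.6 CPM (3.18-fold, edgeR adjusted p = 4e-09), and Spp1, from 45.1 to 53.6 CPM to 79.7 to 94.1 CPM (1.74-fold, edgeR adjusted p = 0.0156). By day 4 Comp was at 5.21 to 7.84 CPM, below every library of day 0 plus VC, and Spp1 at 48.5 to 59.3 CPM, which overlapped day 0 plus VC. Against day 0 without VC the day 2 values turned direction for Comp (-0.19), Spp1 (-0.85), Thbs2 (0.25) and Sparc (0.15), as did that of Spp1 at day 4 (-1.52).

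Whether D/KO cells changed by another amount than WT cells was tested as an interaction. At day 4 without VC it passed for 7 of the 10 genes, in each of which the D/KO change was the more negative. It was -2.23 ± 0.26 on the log2 scale for Tnc (edgeR adjusted p = 9.64e-08), -1.81 ± 0.35 for Spp1 (0.000283) and -1.50 ± 0.26 for Postn (8.89e-05). It was -1.60 for Thbs4, -1.13 for Thbs1, -0.92 for Fn1 and -0.73 for Thbs2. Over all genes 7.27% of interactions were higher in D/KO and 7.04% lower (12.1% and 4.29% by library totals). The Thbs4 value was -1.15 without D/KO day 0 replicate 1 and did not pass.

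At day 4 plus VC the interaction passed for 5 genes, all in the same direction, against 13.9% of all genes higher and 15.5% lower (17.6% and 12.7% by library totals). Thbs1 differed by -2.08 ± 0.20 (edgeR adjusted p = 6.72e-10), Postn by -2.01 ± 0.27 (3.73e-07), Thbs2 by -0.95 ± 0.14 (2.73e-06) and Tnc by -0.90 ± 0.26 (0.00851). The Tnc value was -0.60 without D/KO day 0 plus VC replicate 3 and missed the threshold. The fitted value of Thbs4 (-4.79, edgeR adjusted p = 5.21e-06) rests on 4 counts in D/KO day 4 plus VC. Thbs1 was at 2283 to 2935 CPM in D/KO and 8516 to 9499 CPM in WT cells at day 4 plus VC, against 18383 to 19135 and 13673 to 17287 CPM at day 0 plus VC. The interaction of Spp1 at day 4 plus VC was -0.36 (95% interval -1.07 to 0.35) and that of Fn1 -0.24 (-0.68 to 0.20), and neither passed.

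**Figure D2:**
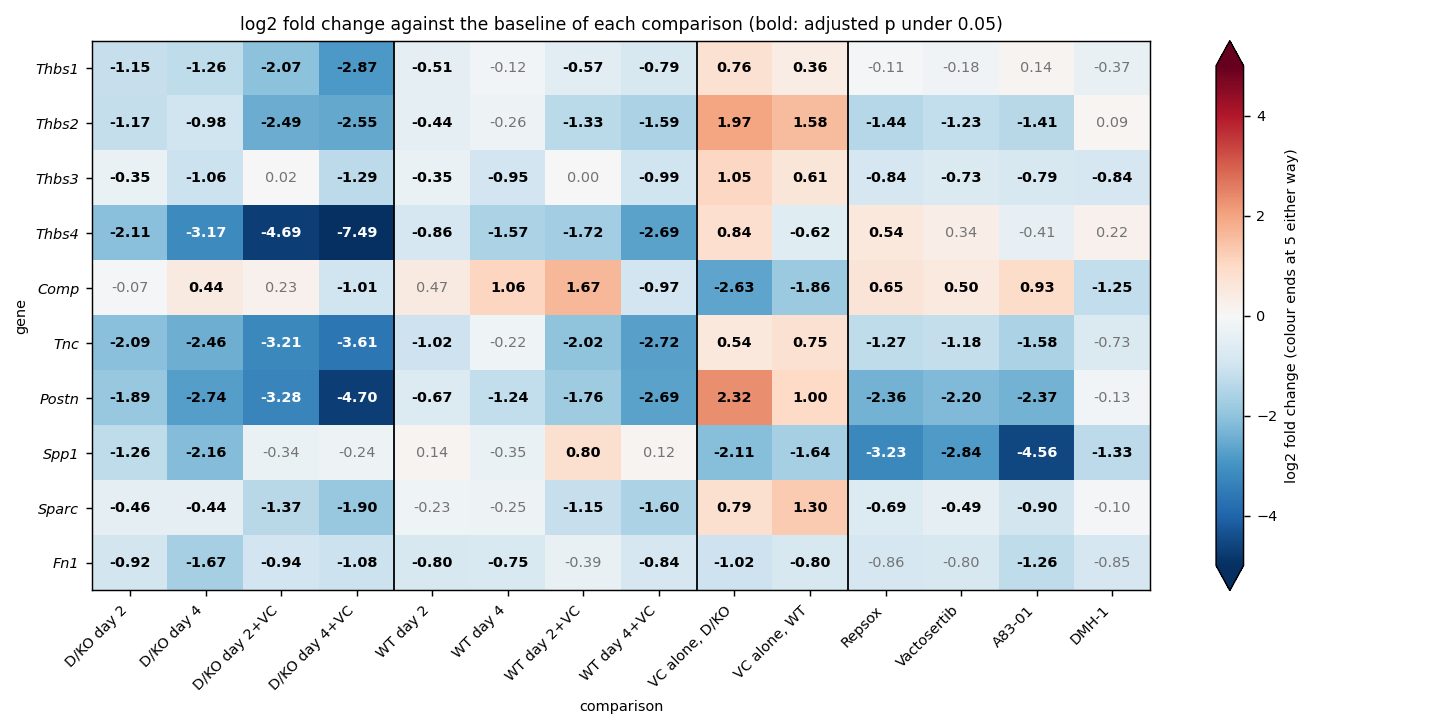
Log2 fold changes of the 10 genes (rows) in 14 comparisons (columns), as a color scale with the value in each cell and bold type where the edgeR adjusted p was under 0.05. In the column of D/KO day 4 plus VC Postn is at -4.70, Spp1 at -0.24 and Fn1 at -1.08, and the Thbs4 cell there (-7.49) is a fitted value that rests on 4 counts. Comp is higher with Repsox, Vactosertib and A83-01 and lower with DMH-1.

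At day 4, cells with VC were also compared directly with cells without it. In D/KO cells 2 of the 10 genes were higher and 6 lower with VC, and in WT cells 1 was higher and 5 lower, against 16.8% higher and 17.7% lower in D/KO and 12% higher and 10.4% lower in WT among all genes. Comp had the largest difference of the 10 in WT cells. It stood at 125, 123 and 106 CPM without and 7.5, 5.62 and 7.58 CPM with VC in D/KO cells (17.0-fold lower, edgeR adjusted p = 1.36e-17), and at 94.4, 88.6 and 102 CPM against 6.21, 7.84 and 5.21 CPM in WT cells (14.8-fold lower, edgeR adjusted p = 9.04e-17). All 6 libraries with VC were below all 6 without. Between these groups the endothelial markers of D/KO cells were at 245 to 293 CPM without and 467 to 666 CPM with VC. In that order their keratinocyte markers were at 42.9 to 59.3 and 337 to 467 CPM. Their smooth muscle and pericyte markers were at 208 to 226 and 31.2 to 34.7 CPM. The tenocyte markers were at 25.3 to 26.4 and 6.63 to 9.19 CPM. The macrophage markers were at 6.48 to 7.11 and 2.45 to 2.91 CPM. The chondrocyte markers were at 8.04 to 12 and 6.11 to 7.92 CPM. In WT cells they were at 30.7 to 39 and 14.2 to 17.5 CPM. The WT tenocyte markers were at 69.4 to 72.7 and 32.1 to 36.1 CPM, and WT fibroblast and keratinocyte markers were higher with VC. Thbs4 had 4 pooled counts against 49 in D/KO cells, 12.2-fold lower per TMM-scaled library size (exact 95% interval 4.47 to 46.5). That interval holds the fold of Comp, so the order of the 2 genes in D/KO is not settled. In WT cells Thbs4 was 3.36-fold lower (edgeR adjusted p = 1.43e-07). Thbs3 was higher with VC in both lines, 1.77-fold and 1.47-fold (edgeR adjusted p = 1.38e-06 and 0.000247). Thbs2, raised by VC at day 0, was at 623 to 721 CPM without and 814 to 1077 CPM with VC in D/KO cells (1.32-fold, edgeR adjusted p = 0.00154). Tnc was lower with VC in WT cells, at 376 to 397 CPM against 1258 to 1327 CPM (3.35-fold, edgeR adjusted p = 6.6e-09).

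Before reprogramming the D/KO and WT lines already differed in 7 of the 10 genes, with 4 higher and 3 lower in D/KO, against 22.1% of all genes higher and 21.1% lower (13.9% and 32% by library totals). Thbs4 stood at 3.53 to 12.3 CPM in D/KO and 772 to 1306 CPM in WT day 0 libraries, 121-fold apart (log2 fold change -6.92 ± 0.29, edgeR adjusted p = 1.39e-20). Spp1 stood at 1327 to 2001 CPM in D/KO and 130 to 173 CPM in WT cells, 10.3-fold higher (edgeR adjusted p = 9.03e-13). Comp was 1.90-fold, Sparc 1.60-fold and Fn1 1.51-fold higher in D/KO, and Postn 2.55-fold and Thbs3 2.23-fold lower. Thbs1, Thbs2 and Tnc did not pass, with 95% intervals of -0.39 to 0.18, -0.09 to 0.31 and -0.10 to 0.65 on the log2 scale. At day 0 the tenocyte markers summed to 67 to 78.2 CPM in D/KO and 141 to 162 CPM in WT libraries, the macrophage markers to 13 to 13.8 and 75.6 to 146 CPM, and the endothelial markers to 635 to 692 and 0.607 to 0.913 CPM. In the same order the fibroblast markers were at 69629 to 110182 and 45677 to 47135 CPM. The smooth muscle and pericyte markers were at 1015 to 1605 and 452 to 537 CPM.

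In the inhibitor table D/KO and WT were other lines, Ercc1 d/- and Ercc1 +/+ with no 4FJ cassette in their labels, and Thbs4 went the other way. Control D/KO libraries held 44.5, 61.0 and 63.6 CPM and WT tail tip libraries 1.49, 2.17 and 1.98 CPM, so that here D/KO was 30.2-fold higher (log2 fold change 4.92 ± 0.23, edgeR adjusted p = 4.09e-11). All 10 genes passed between these lines, 6 higher and 4 lower in D/KO, against 21.3% higher and 18.9% lower among all genes. Comp was also reversed, at 35.2 to 41.5 CPM in D/KO and 49.8 to 68.4 CPM in WT cells (-0.60 ± 0.17, edgeR adjusted p = 0.0105). Spp1 was higher in D/KO again (794 to 997 CPM against 42.2 to 53.9 CPM, 18.8-fold, edgeR adjusted p = 3.46e-11), and Postn and Thbs3 lower again. Tnc was 8.35-fold higher in D/KO, at 2120 to 2788 CPM against 244 to 407 CPM (edgeR adjusted p = 4.18e-08). The calls of Thbs1, Comp, Sparc and Fn1 were each lost without WT tail tip replicate 3, which left 6 of 10. The chondrocyte markers summed to 26.1 to 31.8 CPM in control D/KO and 75.6 to 88.5 CPM in WT tail tip libraries, the endothelial markers to 273 to 321 and 29.1 to 42.8 CPM, the tenocyte markers to 80.7 to 100.1 and 49.7 to 63.7 CPM, and the keratinocyte markers to 0.17 to 0.767 and 10.8 to 13.6 CPM. The 2 tables were normalized and fitted separately, so levels are set side by side and not tested across them.

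The inhibitor experiment asked what blocking ALK5 or ALK2 does in D/KO cells. With each ALK5 inhibitor Spp1, Postn, Thbs2, Tnc, Thbs3 and Sparc fell and Comp rose, while Thbs1 did not pass. Repsox lowered 6 genes and raised 2, Vactosertib lowered 6 and raised 1, and A83-01 lowered 7 and raised 1. DMH-1 lowered 3 (Spp1, Comp and Thbs3) and raised none. The background was 13.4% of tested genes higher and 11.8% lower for Repsox, 11.8% and 10.3% for Vactosertib, 16.4% and 16.2% for A83-01, and 5.96% and 3.79% for DMH-1. By library totals it was 19% and 8.22%, 17% and 7.14%, 23.7% and 11.3%, and 8.25% and 2.84% in the same order. The median log2 fold change of the 10 was -0.85, -0.76, -1.08 and -0.55 in the same order. All 4 comparisons share the 3 control libraries. The fibroblast markers summed to 71627 to 77740 CPM in control, 31581 to 45149 CPM with Repsox or Vactosertib, 35355 to 37591 CPM with A83-01 and 61549 to 79395 CPM with DMH-1. The endothelial markers summed to 273 to 321 CPM in control, 86.9 to 128 CPM with A83-01 and 338 to 408 CPM with DMH-1. With Repsox and Vactosertib they overlapped control. The macrophage markers were at 10.5 to 14.8 CPM in control, 16.2 to 28.5 CPM with Repsox and 15.9 to 23.6 CPM with A83-01. With Vactosertib and DMH-1 the macrophage markers overlapped control. The smooth muscle and pericyte markers summed to 1132 to 1369 CPM in control, 474 to 564 CPM with DMH-1, 795 to 925 CPM with A83-01, 998 to 1131 CPM with Vactosertib and 1097 to 1623 CPM with Repsox. The chondrocyte markers were lower with all 4 inhibitors, at 26.1 to 31.8 CPM in control, 5.49 to 9.29 CPM with the ALK5 inhibitors and 14.1 to 16.0 CPM with DMH-1. The osteoblast markers were lower with all 4 as well, at 31.2 to 37.2 CPM in control and 17.6 to 26.1 CPM over the 12 treated libraries. The Schwann cell markers were higher with all 4, at 6.61 to 9.53 CPM in control, 10.9 to 13.8 CPM with DMH-1, 13.7 to 18.7 CPM with Repsox or Vactosertib and 30.8 to 38.9 CPM with A83-01. The tenocyte markers were at 80.7 to 100.1 CPM in control, 105 to 114 CPM with Vactosertib and 60.8 to 71.3 CPM with A83-01.

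**Figure D3:**
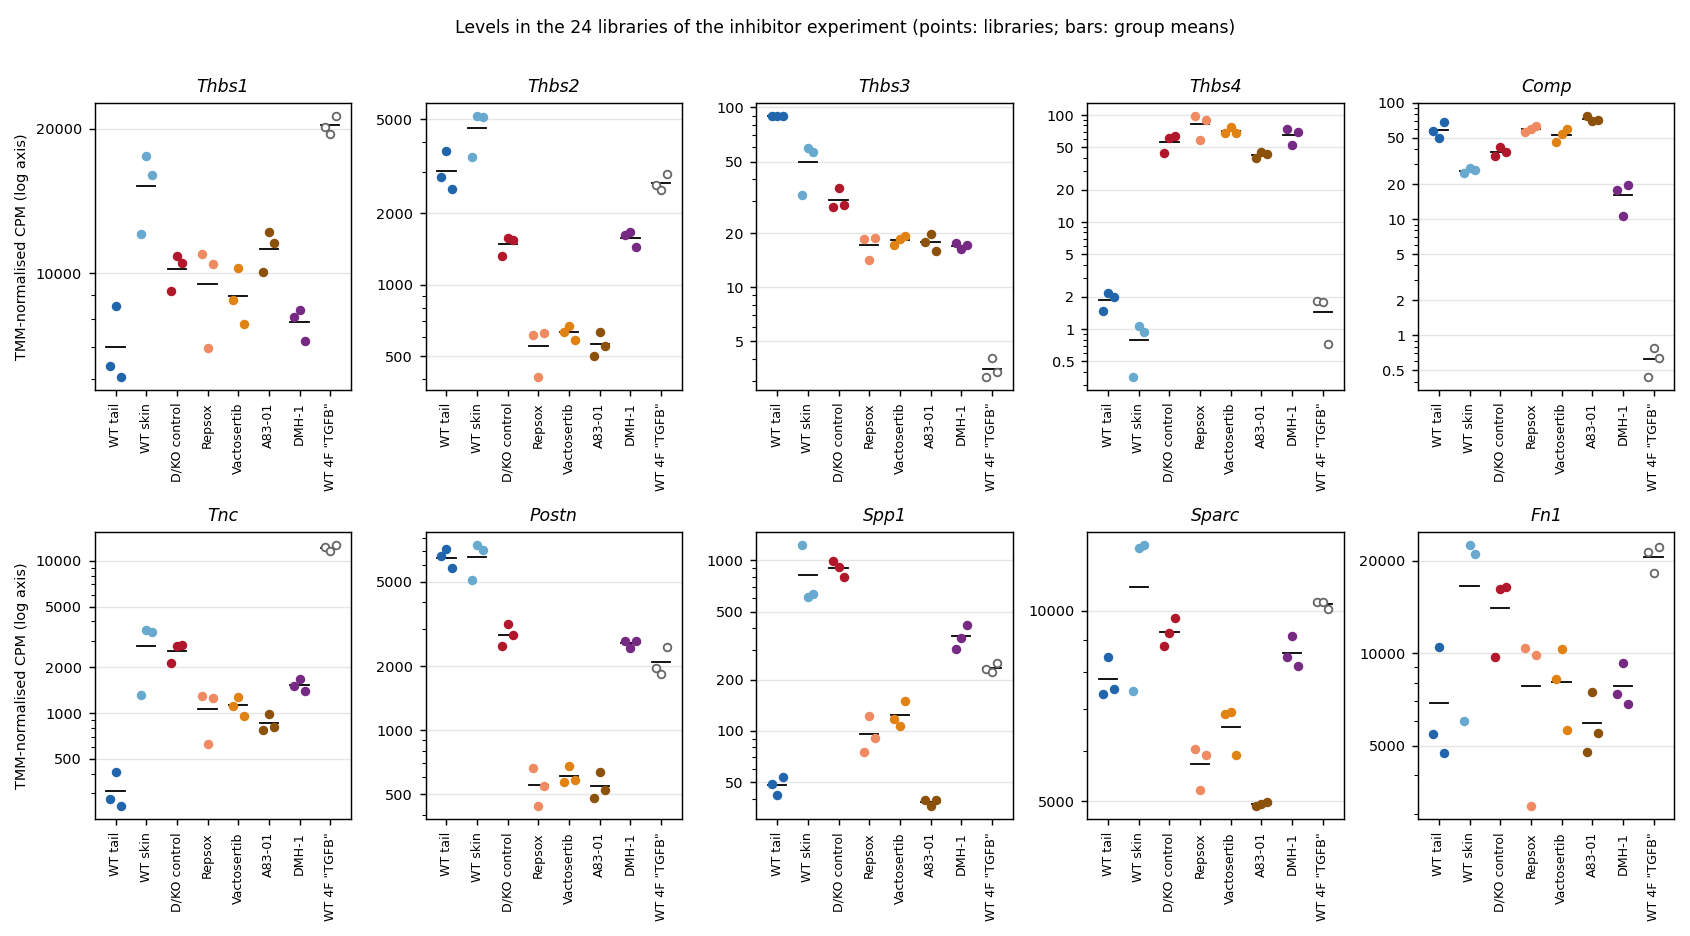
TMM-normalized CPM (log axis) of each of the 10 genes in the 24 libraries of the inhibitor experiment, by group, with points for libraries and bars for group means. Spp1 is at 794 to 997 CPM in control D/KO and 36.2 to 39.4 CPM with A83-01. Fn1 and Tnc spread widely within the skin and Repsox groups.

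Osteopontin responded most. It stood at 997, 911 and 794 CPM in control D/KO libraries, at 75.6, 122 and 90.3 CPM with Repsox, at 117, 108 and 149 CPM with Vactosertib, at 39.3, 36.2 and 39.4 CPM with A83-01 and at 304, 353 and 418 CPM with DMH-1. All treated libraries were below all controls, those with A83-01 were lowest and those with DMH-1 highest. The log2 fold changes were -3.23 ± 0.18 (Repsox), -2.84 ± 0.18 (Vactosertib), -4.56 ± 0.20 (A83-01) and -1.33 ± 0.17 (DMH-1), with edgeR adjusted p = 1.8e-09, 9.67e-09, 3.19e-11 and 7.51e-05.

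Periostin stood at 2482, 3150 and 2818 CPM in control, at 667, 439 and 547 CPM with Repsox, at 573, 681 and 581 CPM with Vactosertib and at 478, 639 and 524 CPM with A83-01. The 3 ALK5 groups overlapped one another and lay far below control, with log2 fold changes of -2.36 ± 0.15, -2.20 ± 0.15 and -2.37 ± 0.15 (edgeR adjusted p = 9.19e-09, 2.58e-08 and 4.89e-09). With DMH-1 periostin was at 2635, 2440 and 2631 CPM and overlapped control (-0.13, 95% interval -0.44 to 0.18, edgeR adjusted p = 0.679). Thbs2 was likewise far lower with the ALK5 inhibitors and overlapped control with DMH-1, at 1325 to 1578 CPM in control, 408 to 672 CPM over the 9 libraries with an ALK5 inhibitor and 1437 to 1676 CPM with DMH-1. Its log2 fold changes were -1.44, -1.23 and -1.41 with the ALK5 inhibitors (edgeR adjusted p = 4.45e-06, 2.94e-05 and 3.55e-06) and 0.09 with DMH-1 (95% interval -0.25 to 0.43).

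Tnc stood at 2120, 2749 and 2788 CPM in control, at 1289, 630 and 1259 CPM with Repsox, at 1121, 1286 and 964 CPM with Vactosertib, at 780.3, 980.1 and 812 CPM with A83-01 and at 1512, 1681 and 1405 CPM with DMH-1. No treated library reached the lowest control. Repsox replicate 2, the library that stood apart, was the lowest. Its log2 fold changes were -1.27 with Repsox, -1.18 with Vactosertib and -1.58 with A83-01 (edgeR adjusted p = 0.000652, 0.0015 and 6.21e-05). With DMH-1 the value was -0.73 ± 0.23 (edgeR adjusted p = 0.0575), which passed with DESeq2 and in 3 other fits. Sparc fell by 0.69, 0.49 and 0.90 in the same order of ALK5 inhibitors, from 8782 to 9727 CPM down to 4910 to 4981 CPM with A83-01 (edgeR adjusted p = 2.04e-06). With DMH-1 it was at 8175 to 9103 CPM (-0.10, 95% interval -0.31 to 0.10).

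Thbs3 fell with all 4 inhibitors, as did Spp1, and its 4 values were close, from 27.9 to 35.6 CPM to 14.2 to 19.8 CPM over the 12 treated libraries (log2 fold changes -0.84, -0.73, -0.79 and -0.84, edgeR adjusted p = 5.86e-05, 0.000294, 7.46e-05 and 0.000203). Comp was higher with the 3 ALK5 inhibitors and lower with DMH-1. It stood at 35.2, 41.5 and 37.6 CPM in control, at 56.4, 59.4 and 63.9 CPM with Repsox, at 46.6, 54.6 and 59.4 CPM with Vactosertib, at 77.8, 69.5 and 71.1 CPM with A83-01 and at 17.9, 10.7 and 19.7 CPM with DMH-1. The ALK5 groups were all above and the DMH-1 group all below control, with log2 fold changes of 0.65, 0.50, 0.93 and -1.25 (edgeR adjusted p = 0.0106, 0.0497, 0.000483 and 0.000203). The Vactosertib call on Comp was close to the threshold and was lost in 5 of the 6 fits that left out 1 library of either group.

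Thbs1 stood at 9162 to 10877 CPM in control and 6982 to 12182 CPM over the 12 treated libraries, and no inhibitor passed (largest difference -0.37 with DMH-1, 95% interval -0.72 to -0.01, edgeR adjusted p = 0.205). Thbs4 passed with Repsox alone, at 98.6, 59.0 and 89.3 CPM against 44.5, 61.0 and 63.6 CPM in control. These overlapped, and the log2 fold change of 0.54 ± 0.18 (edgeR adjusted p = 0.0356) was lost when any of 4 libraries was left out. Fn1 stood at 9696, 16137 and 16394 CPM in control and at 4772, 7461 and 5492 CPM with A83-01 (-1.26 ± 0.39, edgeR adjusted p = 0.0194). That call was lost when any of 4 libraries was left out, at -1.12 to -1.21. With the other inhibitors the differences of Fn1 were -0.80 to -0.86 and did not pass, with Repsox at -0.86.

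Without Repsox replicate 2 the same 8 genes passed for Repsox, with log2 fold changes of -3.45 for Spp1, -2.22 for Postn, -1.27 for Thbs2, -1.01 for Tnc, -0.73 for Thbs3, -0.63 for Sparc, 0.65 for Comp and 0.73 for Thbs4. Fn1 was then at -0.48 and Thbs1 at 0.07, and neither passed. Between Repsox and Vactosertib none of the 10 genes passed without that library either, and the widest gap was -0.60, in Spp1.

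A83-01 and DMH-1, given at the same dose and time, differed in 8 of the 10 genes, with 2 higher and 6 lower with A83-01, against 11.9% higher and 13.4% lower among all genes (15.9% and 10.3% by library totals). The difference was 2.18 ± 0.18 for Comp (edgeR adjusted p = 1.3e-07), -3.23 ± 0.19 for Spp1 (1.93e-09), -2.24 ± 0.15 for Postn (1.63e-08) and -1.50 ± 0.16 for Thbs2 (2.9e-06), all on the log2 scale. Sparc differed by -0.80, Tnc by -0.84, Thbs4 by -0.63 and Thbs1 by 0.51. Each of the last 3 was lost in at least 1 fit that left out a library. Thbs3 differed by 0.06 (95% interval -0.20 to 0.31) and Fn1 by -0.41 (-1.22 to 0.40), and neither passed.

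Repsox and Vactosertib, also given at one dose and time, did not differ in any of the 10 genes at an adjusted p under 0.05, and neither did any other gene (0% of 15164 by edgeR, with 452 genes at an unadjusted p under 0.05 and 8 called by DESeq2). The widest gap was in Spp1, with a log2 difference of -0.39 (95% interval -0.75 to -0.03). The intervals were -0.47 to 0.15 for Postn, -0.54 to 0.13 for Thbs2, -0.59 to 0.39 for Tnc and -0.87 to 0.75 for Fn1, and a p that misses the threshold does not show that the compounds act alike.

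Within groups, several of the 10 genes moved with a property of the whole library. A long-gene index was taken for each library as the median log2 CPM of the 10% of tested genes with the longest exons minus that of the 10% with the shortest. Fn1, with 11685 bases of exon, is itself in the long set, which starts at 9606 bases in the 24 inhibitor libraries. Over the 24 inhibitor libraries, each set against its group mean, the index went with Tnc (Pearson r = 0.99, Spearman rho = 0.98), Fn1 (0.98 and 0.97), Thbs2 (0.96 and 0.96) and Thbs1 (0.95 and 0.96), and against Spp1 (-0.92 and -0.86). Without the 2 libraries farthest from the median index r was 0.97 for Tnc, 0.96 for Fn1 and -0.84 for Spp1. For the other genes r was 0.87 for Sparc, 0.81 for Postn, 0.74 for Thbs3, 0.63 for Thbs4 and -0.12 for Comp. Without the same 2 libraries r was 0.81, 0.71, 0.48, 0.39 and -0.25 in that order. The points share the library and its scaling, so these values are descriptions with no test. The 2 libraries with the lowest index against their group were skin replicate 1 (-0.88) and Repsox replicate 2 (-0.68), which also had the lowest Fn1, at 5999 CPM against 21089 and 22539 CPM in skin and 3168 CPM against 9877 and 10364 CPM with Repsox. Over the 36 reprogramming libraries r was 0.73 for Thbs2, 0.72 for Thbs1, 0.61 for Fn1, 0.55 for Postn, 0.54 for Tnc and 0.26 for Thbs4. It was -0.0073 for Spp1, -0.039 for Comp and -0.19 for Thbs3, and for Sparc it was -0.57, of the opposite sign to the inhibitor table.

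**Figure D4:**
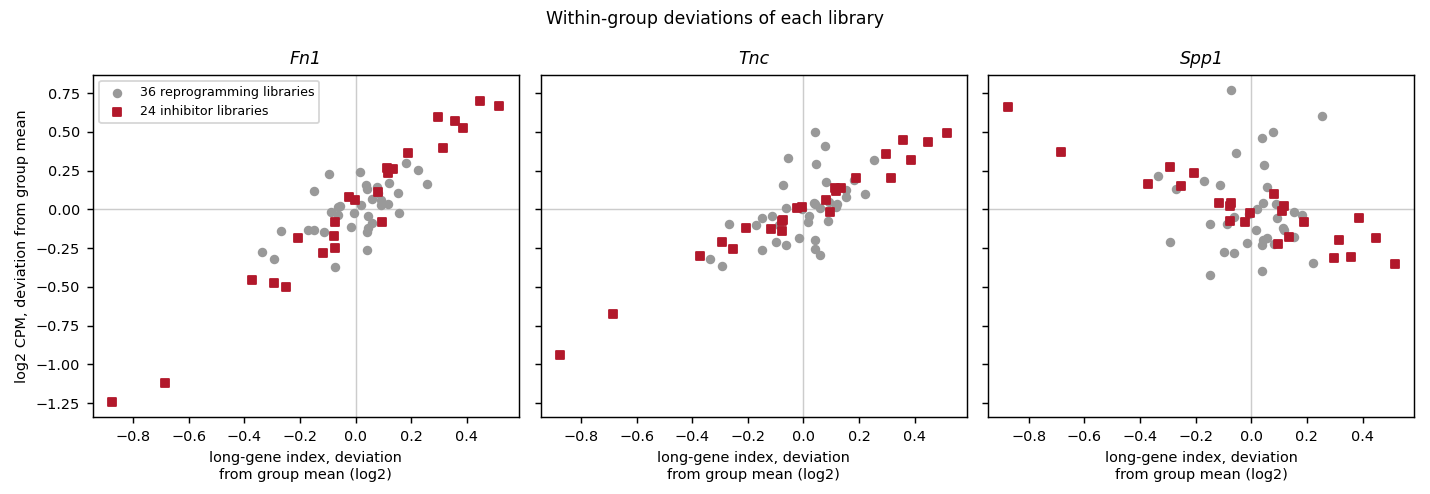
Deviation of log2 CPM from the group mean (vertical axis) for Fn1, Tnc and Spp1, against that of the long-gene index (horizontal axis). There is 1 point per library. In the inhibitor table Tnc and Fn1 rise with the index (r = 0.99 and 0.98) and Spp1 falls (r = -0.92).

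With the index as a covariate, an alternative chosen after seeing the data, 8 of the 10 genes passed for DMH-1 in place of 3, while calls over all genes went from 9.75% to 26.9%. Fn1 then passed for Repsox (-0.67), Vactosertib (-0.42) and DMH-1 (-0.65) as well, and Spp1 (-0.38) and Thbs2 (-0.25) passed between Repsox and Vactosertib. Over all genes that comparison then called 66.

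WT skin and tail tip fibroblasts of the same age and sex differed in 9 of the 10 genes, with 6 higher and 3 lower in skin, against 18.1% higher and 16.1% lower among all genes (13.9% and 23% by library totals, with 7 of the 10 called). Spp1 stood at 1231, 611 and 630.5 CPM in skin and 48.7, 42.2 and 53.9 CPM in tail tip, 17.1-fold higher (edgeR adjusted p = 7.36e-11). Tnc stood at 1311, 3542 and 3431 CPM in skin and 273, 407 and 244 CPM in tail tip, 8.96-fold higher (edgeR adjusted p = 1.01e-07). Skin replicate 1, which stood apart, had the highest Spp1 and the lowest Tnc of the skin group. Without it 8 of the 10 genes passed, with log2 fold changes of 3.68 for Spp1 (4.09 with it), 1.66 for Fn1 (1.26), 1.26 for Thbs1 (1.12), 0.77 for Thbs2 (0.60), 0.70 for Sparc (0.49), -0.63 for Thbs3 (-0.86) and -1.12 for Comp (-1.16), and Tnc still passed. Thbs4 went from -1.26 to -0.89 and missed the threshold. It was low in both groups, at 0.357 to 1.06 CPM in skin and 1.49 to 2.17 CPM in tail tip. Thbs1 was 2.18-fold higher, and Comp 2.23-fold and Thbs3 1.81-fold lower, while Postn did not differ beyond its spread (log2 fold change 0.01, 95% interval -0.35 to 0.36). The calls of Fn1, Sparc, Thbs2 and Thbs4 were lost without at least 1 library each, and 4 of 10 passed when only these 2 groups were fitted, where calls over all genes went from 34.2% to 18.4%. Smooth muscle and pericyte markers summed to 3029 to 4433 CPM in skin and 845 to 1057 CPM in tail tip, endothelial markers to 134 to 237 and 29.1 to 42.8 CPM, and chondrocyte markers to 39.7 to 60.2 and 75.6 to 88.5 CPM.

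The 3 WT 4FJ libraries labelled TGFB had the highest Thbs1 and Tnc of the inhibitor table. Thbs1 stood at 20162, 19530 and 21316 CPM, above every other library of that table. Tnc stood at 12343, 11588 and 12732 CPM, where the next highest library, of WT skin, was at 3542 CPM. Fn1 (18224 to 22240 CPM) overlapped skin, and Thbs3 (3.16 to 4.01 CPM) and Comp (0.439 to 0.783 CPM) were the lowest of the table. The 10 genes held 5.84% of counts. The smooth muscle and pericyte markers summed to 5600 to 6271 CPM there. Thbs4, at 772 to 1306 CPM in day 0 cells of the same genotype, age and sex in the other table, was at 0.733 to 1.84 CPM. The label does not say what was given, and treatment and experiment cannot be told apart.

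Further matricellular genes and the receptors of these proteins were counted from lists. Of 22 other matricellular genes, 15 were tested in the reprogramming fit, and at D/KO day 4 plus VC 3 rose and 10 fell (median -1.52), against 27.9% of all genes higher and 26.2% lower, among them Tnn (tenascin W) at -5.45 ± 0.17, Smoc2 at -3.15 ± 0.14, Tnxb (tenascin X) at 5.71 ± 0.23 and Spock1 at 2.28 ± 0.70. With VC alone 4 rose and 5 fell in D/KO and 5 rose and 5 fell in WT cells, where 12.1% to 15.1% of all genes were higher and 14% to 14.4% lower. With A83-01 5 of 16 rose and 7 fell, against 16.4% and 16.2% of all genes, among them Tgfbi, which is named for its induction by TGFb, at -2.92 ± 0.12 and Edil3 at -2.58 ± 0.19, with Ccn3 at 3.15 ± 0.13 and Tnxb at 2.68 ± 0.36. Of 19 receptor genes 18 were tested, and with VC alone 2 rose and 9 fell in D/KO and 3 rose and 1 fell in WT cells. At D/KO day 4 plus VC 4 rose and 12 fell, beside the same 27.9% and 26.2% of all genes, with the integrin subunit Itga8 at -3.46 ± 0.27, the SPARC receptor Stab1 at -3.31 ± 0.18, the thrombospondin receptor Cd36 at 3.79 ± 0.99 and the osteopontin receptor Cd44 at 1.45 ± 0.11. With A83-01 4 rose and 9 fell (16.4% and 16.2% of all genes), with the integrin subunits Itgb3 at -1.61 ± 0.16, Itga5 at -1.47 ± 0.11, Itga8 at 3.06 ± 0.39 and Itgb8 at 1.54 ± 0.24. Each of these named genes passed, with values as log2 fold change ± SE.

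By likeness over the 12 group means of log2 CPM, the nearest gene was Morc4 for Thbs1 (r = 0.98), Draxin for Thbs2 (0.96), Cpxm1 for Thbs3 (0.94), Casp4 for Thbs4 (0.99) and Ptpn9 for Comp (0.97). It was Klf5 for Postn (0.98), Ppm1j for Spp1 (0.99), Yif1b for Sparc (0.98) and Lbh for Fn1 (0.98). The next nearest were Cask, Gm35024, Cap2, Emx2os, Atg13, Cdkl1, Crmp1, Copb2 and Tgoln1 for those 9 genes in the same order, with r from 0.93 to 0.99. Over the 8 group means of the inhibitor table r was 0.94 for Cpxm1 with Thbs3, 0.80 for Ppm1j with Spp1, 0.73 for Casp4 with Thbs4, 0.44 for Ptpn9 with Comp, 0.35 for Yif1b with Sparc, 0.15 for Klf5 with Postn, 0.08 for Draxin with Thbs2, -0.16 for Lbh with Fn1 and -0.58 for Morc4 with Thbs1. Group means share days, lines and treatments, and these are descriptions with no test.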

How the data were processed

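Total RNA of the 60 libraries was sequenced in paired-end mode on an Illumina NovaSeq with reads of 150 bases. Values as deposited are unnormalized read counts of genes; per the labels and methods the authors used FastQC, Trim Galore, HISAT2 and featureCounts on GRCm39. Versions, strand setting and the handling of multi-mapping reads are not given in the sources used here. Symbols came from GENCODE M39 (98.7% of 56980 identifiers matched).

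TMM scaling and filtering by filterByExpr (minimum count 10, minimum total 15) were done with edgeR 4.0.16 in R 4.3.3, with 1 coefficient per group. Fits held 36 libraries (15832 genes), 18 (15164 genes) and, for skin against tail tip, 24 (15652 genes). Two-sided quasi-likelihood F-tests had Benjamini-Hochberg adjustment per contrast, at 0.05. Common biological coefficients of variation were 0.132, 0.168 and 0.195. Replicates varied more than counting noise (median variance ratio 12.8 and 24.1), so depth did not set the precision. DESeq2 1.42.0 and other settings were alternatives, and the fits were tested on simulated data.

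The 10 genes, the gene and marker lists, the tests and the alternatives were chosen with earlier results of these data known. Besides the 10 genes, text names the 2 genes nearest by Pearson r over 12 group means (prior count 2) and the 2 largest rises and falls per list at D/KO day 4 plus VC and with A83-01. Nearest genes for Tnc are not reported here.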

Additional observations from a re-analysis of the deposited data

Results flagged for a closer look

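Results are listed here where a test of the difference between the D/KO and WT change passed, where every library of one line pair went one way and of the other pair the opposite way, or where a signal stood out in libraries that entered no comparison.

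The D/KO minus WT difference in the log2 change at day 4 was -1.13 for Thbs1, -0.73 for Thbs2, -1.60 for Thbs4, -2.23 for Tnc, -1.50 for Postn, -1.81 for Spp1 and -0.92 for Fn1. At day 4 plus VC it was -2.08 for Thbs1, -0.95 for Thbs2, -4.79 for Thbs4 (on 4 counts in the D/KO day 4 plus VC libraries), -0.90 for Tnc and -2.01 for Postn. In all of these the D/KO change was the more negative, and line, sex and age differ along with genotype.

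Thbs4 was lower in D/KO than in WT cells at day 0 of reprogramming (log2 fold change -6.92) and higher in the inhibitor experiment (4.92). Comp went the other way, at 0.93 and -0.60. The difference between the 2 experiments was not tested, and the lines in them came from different mice.

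In the WT 4FJ libraries labelled TGFB, the mean level was 20336 CPM for Thbs1 and 12221 CPM for Tnc, above every other library of the inhibitor table. No untreated library of that line is in the same table, and the part of the treatment was not tested.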

How the results depend on the processing

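Alternatives were DESeq2, its size factors, library totals, no low-count filter or a minimum of 10 counts per library, only the groups compared, all 24 inhibitor libraries, a 2-fold minimum change (log2 of 1), a baseline of day 0 without VC, the long-gene index as a covariate, and each library left out. Over single-gene values under these, 3170 kept the call and its direction or stayed without a call. Another 69 gained and 189 lost the call, and 6 reversed. A value with no call on either side was not checked for direction. The libraries left out gave 8 of the gains and 85 of the losses. No paired analysis was possible because the labels number libraries consecutively and give no replicate number that groups share. Counts were low for Thbs4 in D/KO cells of the reprogramming experiment and in WT libraries of the inhibitor experiment. Those of Comp were low in the libraries labelled TGFB. Elsewhere depth was not the limit.

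Against day 0 without VC as the baseline, day 2 plus VC reversed for Comp in D/KO cells (-2.40) and in WT cells for Thbs2 (0.25), Comp (-0.19), Spp1 (-0.85) and Sparc (0.15), as did Spp1 at WT day 4 plus VC (-1.52). These follow from the change VC alone made at day 0.

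With the minimum log2 change of 1, genes called fell to 1 at WT day 2, 3 at WT day 4, 5 at WT day 4 plus VC, 6 and 4 for VC alone in D/KO and WT cells, 2 for VC at D/KO day 4, 4 for D/KO against WT at day 0, 3 for the interaction at day 4 plus VC, 4 for Repsox, 4 for Vactosertib, 5 for A83-01 and 4 for A83-01 against DMH-1. With only the groups compared they were 9 at WT day 4, 5 for DMH-1 and 4 for skin against tail tip, and calls over all genes moved the same way, from 24.5% to 46.3%, 9.75% to 13.8% and 34.2% to 18.4%. With the long-gene index as a covariate they were 8 for DMH-1 (26.9% over all genes) and 2 for Repsox against Vactosertib. The cause was not tested beyond how each alternative is built. For the minimum log2 change of 1 the share over all genes was not counted, so those counts have no background.

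With each library left out in turn, genes called ranged from 3 to 8 at WT day 2 (lowest without WT day 0 replicate 1, and 4 without WT day 2 replicate 2) and from 6 to 10 for control D/KO against WT tail tip (lowest without tail tip replicate 3). In the other comparisons the count stayed within 1.5 times its value.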
